A study of Mus musculus with 21 samples.

Results

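The genes described here encode the extracellular matrix and the proteins that build it, cut it and attach cells to it. They were taken by a rule on the gene symbol that uses no measured value, but the rule was drawn up with earlier results of these data known. It covers every numbered collagen chain (Col), laminin chain (Lama, Lamb, Lamc), ADAMTS protease, matrix metalloproteinase (Mmp), tissue inhibitor of metalloproteinases (Timp) and thrombospondin (Thbs), the sulfatases *Sulf1* and *Sulf2*, *Tgfbi*, and the integrin alpha and beta chains with a number for a name. This gave 125 of the 35266 genes in the count table. Integrin chains named by a letter, such as *Itgav*, are outside the list and are counted with other related genes further on.

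RNA-Seq was performed on AGRP and POMC neurons, which drive and restrain feeding respectively, picked by hand under fluorescence from the arcuate nucleus of the hypothalamus, to ask how each cell type responds to an energy deficit. There were 4 groups, with AGRP neurons from 5 fed and 6 food-deprived (FD) mice and POMC neurons from 5 fed and 5 FD mice, and each library came from the pooled neurons of 1 mouse. All mice were males on the C57BL/6J background, 46 to 56 days old, and lived alone in a new cage for the last 24 h, with food freely available to the fed groups and water alone given to the FD groups. AGRP neurons carried the NPY-hrGFP transgene and POMC neurons that of the line labelled Pomc-GFP, whose fluorescent protein the methods of the study call topazFP, so a cell was taken for the activity of the *Npy* or the *Pomc* promoter and the 2 cell types also differ in mouse line. The ages were not balanced either. AGRP mice were 46 to 55 days old when fed and 47 to 55 when FD, and POMC mice 51 to 56 and 54 to 56. The part of age in the differences between the cell types was not tested.

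The labelled identities were measured with marker genes. Summed *Agrp* and *Npy* expression ran from 12064 to 68921 TPM (reads per length of transcript, scaled to the same total in each library) in AGRP libraries and from 5.45 to 226 TPM in POMC libraries, and summed *Pomc* and *Cartpt* from 8809 to 37160 TPM in POMC and 114 to 227 TPM in AGRP libraries. Matrix genes are abundant in blood vessels and fibroblasts, so markers of other cells matter here. The 12 endothelial, mural and fibroblast markers summed to 3.04 to 13.0 TPM in fed AGRP, 4.40 to 17.3 in FD AGRP, 2.81 to 25.0 in fed POMC and 0.735 to 11.4 in FD POMC libraries, and 2 of 4 endothelial markers were at 0 in every library of each group except FD AGRP, whose endothelial sum had a mean of 3.38 TPM against 0.952 TPM in fed AGRP, 1.78 in fed POMC and 1.03 in FD POMC neurons. Of 4 fibroblast markers 3 were at 0 in all fed POMC libraries. All 29 markers of non-neuronal cells had a mean sum of 57.8 TPM in fed AGRP, 49.3 in FD AGRP, 46.1 in fed POMC and 53.3 in FD POMC libraries. Of these sums the 4 oligodendrocyte markers held 36.9, 30.4, 25.7 and 38.4 TPM. The part of these cells in the results was not tested. Of 29 markers of non-neuronal cells 16 could be tested, and 1 of them differed in any comparison (*Aldh1l1*, an astrocyte gene, higher in FD than fed AGRP neurons, q = 0.0284). Each library held 9822298 to 37663979 gene counts (median 19189780) from 44 to 214 sorted cells, and 3 counts corresponded to 0.0912 to 0.295 normalised CPM (reads scaled for depth, with no account of gene length). No library went against its cell type label. In pooled cells, fewer cells carrying a transcript and less of the transcript per cell cannot be told apart.

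The extracellular matrix is a mesh of secreted proteins. Basement membranes are sheets of type IV collagen and laminin, while fibrillar collagens form tension-bearing cables, and thrombospondins, TGFBI and other matricellular proteins bind to the mesh and to cells. Integrins, each a pair of 1 alpha and 1 beta chain, are the receptors that hold cells to it. Metalloproteinases and ADAMTS enzymes cut the mesh, TIMPs inhibit them, and the SULF enzymes remove sulfate groups from heparan sulfate chains and so alter which growth factors those chains bind. In the brain astrocyte-derived thrombospondins are known to promote synapse formation through a neuronal calcium-channel subunit.

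Of the 125 genes, 92 passed the filter for testing (CPM over 1 in at least 3 libraries) and 33 did not, of which 4 had no read in any library. Those under the filter included *Col1a1* and *Col3a1*, the main fibrillar collagens of connective tissue, at group means of 0 to 0.325 TPM and 0 to 0.0156 TPM. A mean above 1 TPM was reached by 64 genes in fed AGRP, 52 in FD AGRP, 58 in fed POMC and 56 in FD POMC neurons, and a mean above 5 TPM by 32, 27, 30 and 23 genes.

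Per length, the TIMPs were the most abundant of the 14 families in every group. They summed to 911 TPM ± 127 (SD, n = 5) in fed AGRP, 583 ± 159 (n = 6) in FD AGRP, 721 ± 98.9 (n = 5) in fed POMC and 794 ± 71.9 (n = 5) in FD POMC neurons, nearly all of it *Timp2*, which alone had a mean of 533 to 827 TPM. Integrin beta chains followed (128 to 178 TPM), nearly all of it *Itgb1*, the beta chain shared by most matrix-binding integrins (117 to 171 TPM). By the mean over the 4 groups, and not in each group, the leading members of other families were *Itga3*, a laminin-binding integrin chain, *Mmp17*, a membrane-anchored metalloproteinase, *Adamts6*, *Sulf2*, *Thbs3*, *Lamc1*, the gamma chain of most laminins, *Col4a2*, *Tgfbi*, *Col11a1*, *Col9a3*, *Col25a1* and *Col6a1*. In FD AGRP neurons *Thbs1* (85.7 TPM) exceeded *Thbs3* (9.11 TPM). Matrix metalloproteinases summed to 86.4 to 98.5 TPM in fed and 43.5 to 67.8 TPM in FD AGRP libraries, with no overlap, while thrombospondins summed to 13.6 to 51.2 TPM in fed and 43.0 to 158 TPM in FD libraries, which overlapped. These totals are descriptions without a test.

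**Figure D1:**
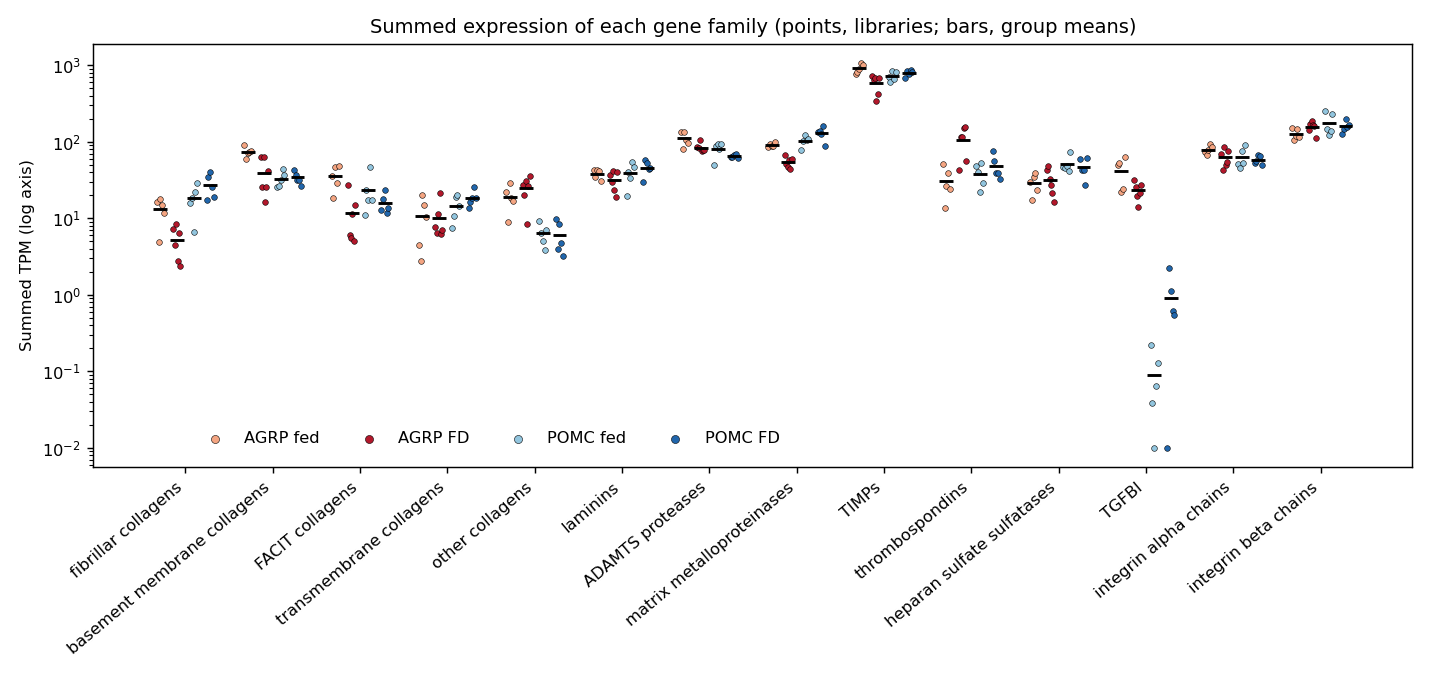
Summed TPM of each gene family on a log axis, with 1 point per library, coloured by group, and a short bar at the group mean. TIMPs lie highest in every group (583 to 911 TPM), thrombospondins are higher in FD AGRP (mean 106 TPM) than in the other 3 groups (30.8 to 48.7 TPM), and *Tgfbi* is far lower in POMC than in AGRP neurons, 1 fed and 1 FD POMC library having none (drawn at the foot of the axis).

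The first comparison asked which matrix genes changed in AGRP neurons after 24 h without food. Of the 92 genes 10 changed at a q (Benjamini-Hochberg adjusted p of edgeR's quasi-likelihood test over 16513 genes) under 0.05, which is 10.9% against 10.3% of all genes tested, so the share was near that of the transcriptome. Thrombospondins *Thbs1* and *Thbs2*, *Col6a5* and *Itgb1* rose (4 genes), and *Sulf1*, *Adamts18*, *Col4a1*, *Mmp17*, *Lama3* and *Lamb2* fell (6 genes), where 5.87% of all genes rose and 4.43% fell. The median log2 change of the 92 genes was −0.56 with 59 negative, beside −0.02 for all genes. With the added criteria of the study (absolute log2 change above 1 and a mean CPM above 20 in a group) 4 of 92 remained, *Thbs1*, *Thbs2*, *Sulf1* and *Col4a1*, against 4.46% of all genes.

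*Thbs1* (ENSMUSG00000040152, chr2:118111876-118127133 in mm10) encodes thrombospondin 1, a secreted trimer that binds matrix, CD47 and latent TGF-beta. It stood at 19.5, 6.17, 9.13, 15.4 and 13.0 normalised CPM in the 5 fed AGRP libraries and ran from 36.2 through a median of 204 to 274 CPM in the 6 FD libraries. Every FD library was above every fed one, with libraries 1 (36.2) and 6 (66.7) well below the other 4. The mean rose from 12.6 ± 5.23 (SD, n = 5) to 175 ± 101 CPM (SD, n = 6), a log2 change of 3.79 (SE 0.65, q = 1.84e-04). In POMC neurons the same gene was at 0.0553, 0.926, 0.354, 3.19 and 1.69 CPM in fed and 3.14, 2.20, 0.0423, 0.295 and 1.96 CPM in FD libraries, which overlap. About 3.20% of its exon bases also lie in an annotated gene of the opposite strand, *Gm29233*, and reads were counted without strand.

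*Thbs2* (ENSMUSG00000023885, chr17:14665500-14694262), also a trimer with a similar domain plan, was at 1.83, 4.57, 0.122, 0.332 and 2.52 CPM in fed AGRP libraries and between 7.71 and 47.8 CPM (median 20.3) in FD libraries, again without overlap. Its log2 change was 3.58 (SE 0.90, q = 0.00915). In fed POMC libraries it was at 4.20, 6.63, 0.236, 35.6 and 2.98 CPM and in FD POMC libraries at 3.09, 5.44, 8.72, 10.5 and 1.16 CPM, so 1 fed POMC mouse (library 4) held most of that group's mean. The other thrombospondins did not pass the test: *Thbs3*, a pentameric form, was at 18.9 ± 9.27 CPM (n = 5) in fed and 9.87 ± 4.65 CPM (n = 6) in FD AGRP neurons (log2 −0.94, q = 0.159), and *Thbs4* had means under 1.35 TPM in each group.

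*Itgb1* (ENSMUSG00000025809, chr8:128685654-128733200) rose by a smaller amount from a high level. It was at 145, 120, 108, 139 and 123 CPM in fed and between 130 and 244 CPM (median 213) in FD AGRP libraries. The groups overlapped, since FD library 6 lay below 2 fed libraries. The log2 change was 0.64 (SE 0.20, q = 0.0386), and the call was kept in 3 of the 11 fits that left out 1 library (log2 0.57 to 0.74), being lost without fed library 2, 3, 4 or 5 or FD library 2, 3, 4 or 5, and also when the fit took account of how many cells were sorted. *Col6a5*, a collagen VI chain, rose from 0.315 ± 0.367 CPM (n = 5) to 3.03 ± 1.79 CPM (n = 6), log2 3.25 (SE 1.04, q = 0.0426), near the limit of detection in fed mice (0 to 14 reads a library). Its call was kept in 3 of the 11 fits with 1 library left out (log2 2.92 to 4.03), and lost without FD library 1, 3, 4 or 5 or fed library 1, 2, 4 or 5. It was kept in 4 of the 9 other alternatives and lost without the count filter, with the compared groups alone, with spike-in volume or sorted cells in the fit and under spike-in scaling.

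The RefSeq stretch upstream of the transcription start is shown for *Thbs2*, *Itgb1* and *Col6a5*, which rose in FD AGRP neurons, for *Adamts18*, which fell, and for *Col11a1*, which is described below as higher in POMC neurons. The *Thbs1* and *Sulf1* promoters are not among the windows used here. Each line holds 250 bases, 5′ to 3′ on the strand of the gene, and capitals mark every match on either strand to the GC box GGGCGG, the CCAAT box CCAAT, the TATA box TATAAA, the AP-1 motif TGANTCA, the E-box CACGTG or the cAMP response element TGACGTCA. The windows are chr17:14694263-14694512 (minus strand), chr8:128685404-128685653 (plus), chr9:105960644-105960893 (minus), chr8:113848840-113849089 (minus) and chr3:114030290-114030539 (plus) of GRCm38.p6, in that order.
Thbs2: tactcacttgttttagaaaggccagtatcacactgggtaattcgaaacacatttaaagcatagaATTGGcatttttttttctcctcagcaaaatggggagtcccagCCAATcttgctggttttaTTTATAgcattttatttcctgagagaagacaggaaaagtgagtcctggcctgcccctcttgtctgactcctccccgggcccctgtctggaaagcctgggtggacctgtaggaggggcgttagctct
Itgb1: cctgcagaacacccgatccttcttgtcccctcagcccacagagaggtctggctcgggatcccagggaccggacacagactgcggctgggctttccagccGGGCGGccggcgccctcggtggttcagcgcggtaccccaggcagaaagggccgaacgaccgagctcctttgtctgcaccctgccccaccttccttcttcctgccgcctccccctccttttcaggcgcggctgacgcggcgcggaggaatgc
Col6a5: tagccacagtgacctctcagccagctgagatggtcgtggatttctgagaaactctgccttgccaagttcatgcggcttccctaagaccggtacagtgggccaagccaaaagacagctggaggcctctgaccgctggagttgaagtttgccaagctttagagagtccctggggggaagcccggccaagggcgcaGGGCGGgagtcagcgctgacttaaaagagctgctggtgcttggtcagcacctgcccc
Adamts18: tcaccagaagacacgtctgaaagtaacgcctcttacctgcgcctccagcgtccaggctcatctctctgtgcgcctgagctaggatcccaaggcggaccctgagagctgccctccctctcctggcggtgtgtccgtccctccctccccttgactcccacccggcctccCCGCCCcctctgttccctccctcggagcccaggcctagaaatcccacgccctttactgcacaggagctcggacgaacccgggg
Col11a1: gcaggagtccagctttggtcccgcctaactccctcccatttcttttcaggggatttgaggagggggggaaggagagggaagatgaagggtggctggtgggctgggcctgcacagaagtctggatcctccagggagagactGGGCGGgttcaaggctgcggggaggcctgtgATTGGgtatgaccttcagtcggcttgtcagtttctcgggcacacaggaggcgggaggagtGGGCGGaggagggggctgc
The *Thbs2* window held 2 CCAAT boxes beginning 186 and 144 bases before the start and a TATA box at 126. The *Itgb1*, *Col6a5* and *Adamts18* windows held 1 GC box each, at 151, 57 and 83 bases, and that of *Col11a1* 2 GC boxes at 110 and 19 bases and a CCAAT box at 79. None of these 5 held an AP-1 motif, an E-box or a cAMP response element. RefSeq windows were matched for 89 of the 125 genes (99 windows). Among them 50.5% held a GC box against 32.7% of all 32851 windows, 27.3% a CCAAT box against 33.8%, 14.1% a TATA box against 12.4%, 7.07% an AP-1 motif against 6.75%, 2.02% an E-box against 6.02% and 0% a cAMP response element against 1.55%, with a median GC content of 58.8% against 52.4%. A match is only a match of letters.

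*Sulf1* (ENSMUSG00000016918, chr1:12692277-12861192), an extracellular enzyme that takes 6-O-sulfate from heparan sulfate, fell most firmly. The fed AGRP libraries were at 12.2, 2.70, 8.65, 28.5 and 17.1 CPM and the FD libraries between 0.101 and 2.13 CPM (median 0.807). No FD library reached the lowest fed one. The mean went from 13.8 ± 9.72 (n = 5) to 0.883 ± 0.765 CPM (n = 6), a log2 change of −3.98 (SE 0.63, q = 6.89e-05). Its relative *Sulf2* was at 31.0 ± 8.19 CPM (n = 5) in fed and 51.9 ± 21.03 CPM (n = 6) in FD AGRP neurons (log2 0.75, q = 0.115), so the 2 sulfatases summed to 28.8 ± 8.70 TPM in fed and 31.4 ± 12.3 TPM in FD AGRP neurons.

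*Col4a1* (ENSMUSG00000031502, chr8:11198423-11312826), a chain of the basement membrane network, fell from a level that varied little among fed mice. It was at 56.3, 48.0, 47.9, 47.4 and 51.5 CPM in fed and between 11.04 and 32.1 CPM (median 18.7) in FD AGRP libraries, without overlap, a log2 change of −1.35 (SE 0.35, q = 0.0102). Its partner chain *Col4a2*, transcribed in the opposite direction from a shared promoter region, had 71.2 ± 10.7 CPM (n = 5) in fed and 46.0 ± 28.5 CPM (n = 6) in FD AGRP neurons, with overlap and q = 0.220. *Mmp17* (ENSMUSG00000029436, chr5:129584169-129608875) was at 35.7, 40.4, 48.1, 42.1 and 52.2 CPM in fed and between 9.35 and 35.4 CPM (median 19.4) in FD AGRP libraries. The 2 ranges just miss each other, and the log2 change was −0.998 (SE 0.26, q = 0.0121).

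The other 3 genes that fell were low in FD mice. *Adamts18*, a secreted protease, went from 6.28 ± 4.32 CPM (n = 5) to 0.160 ± 0.318 CPM (n = 6), with 14 reads in FD library 1 and at most 1 in the other 5 (log2 −5.25, SE 1.42, q = 0.0147). *Lamb2*, the beta-2 laminin chain known from synaptic basement membranes, had 139 reads over the 5 fed libraries, 1 of them at 0, and 4 reads over the 6 FD libraries, which is at least 8.44-fold lower when each FD library is set to 3 counts (q = 0.0319). *Lama3*, a laminin alpha chain, went from 8.90 ± 3.89 to 2.44 ± 1.49 CPM (log2 −1.86, SE 0.61, q = 0.0466) with overlapping groups. Of the fits with 1 library left out, 6 of 11 kept *Lamb2* (lost without fed library 1 or FD library 1, 3, 5 or 6) and 3 of 11 kept *Lama3* (lost without fed library 1, 2, 3 or 4 or FD library 2, 3, 5 or 6), with log2 changes of −6.26 to −4.94 and −2.11 to −1.62. Of the 9 other alternatives *Lama3* passed in 2 (with DESeq2 and RLE normalisation), and *Lamb2* in 6 (lost with limma-voom, the replicate block and spike-in scaling). *Tgfbi* did not pass the test in AGRP neurons, at 32.2 ± 14.4 CPM (n = 5) in fed and 21.01 ± 4.37 CPM (n = 6) in FD mice (log2 −0.62, q = 0.550).

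The groups also differed in the amount of spike-in RNA added to a library, which was 1 µl, 10 µl or a volume set by cell number. FD AGRP library 2, with 50 cells and 1 µl, meets both the first and the last of these and was placed with the last. Each of these 3 volume sets held fed and FD AGRP libraries, and all 10 genes had the same direction within each. The genes were called on these same libraries, so the shared direction is no separate test. With the volume as a block in the fit the calls of *Col6a5* and *Lama3* were lost. For *Thbs1* the log2 ratio of the means, each with 0.5 CPM added, was 3.33 with the volume set by cells (3 FD and 2 fed libraries), 4.37 at 10 µl (2 and 2) and 3.78 at 1 µl (1 and 1), and for *Sulf1* it was −3.85, −2.12 and −4.40. Scaling libraries by the spike-in counts, volume and cell number instead of by TMM left 3 of the 10 calls, *Thbs1*, *Sulf1* and *Adamts18*. The other genes kept their direction under this scaling, with a log2 change of −1.31 for *Col4a1* and 0.60 for *Itgb1*. The share of all genes that kept a call is not given, so a loss in these genes cannot be told apart from a loss in all genes. The 10 µl volume is given by the labels for 6 libraries and is not in the methods of the study, and every spike-in-scaled value here depends on it.

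**Figure D2:**
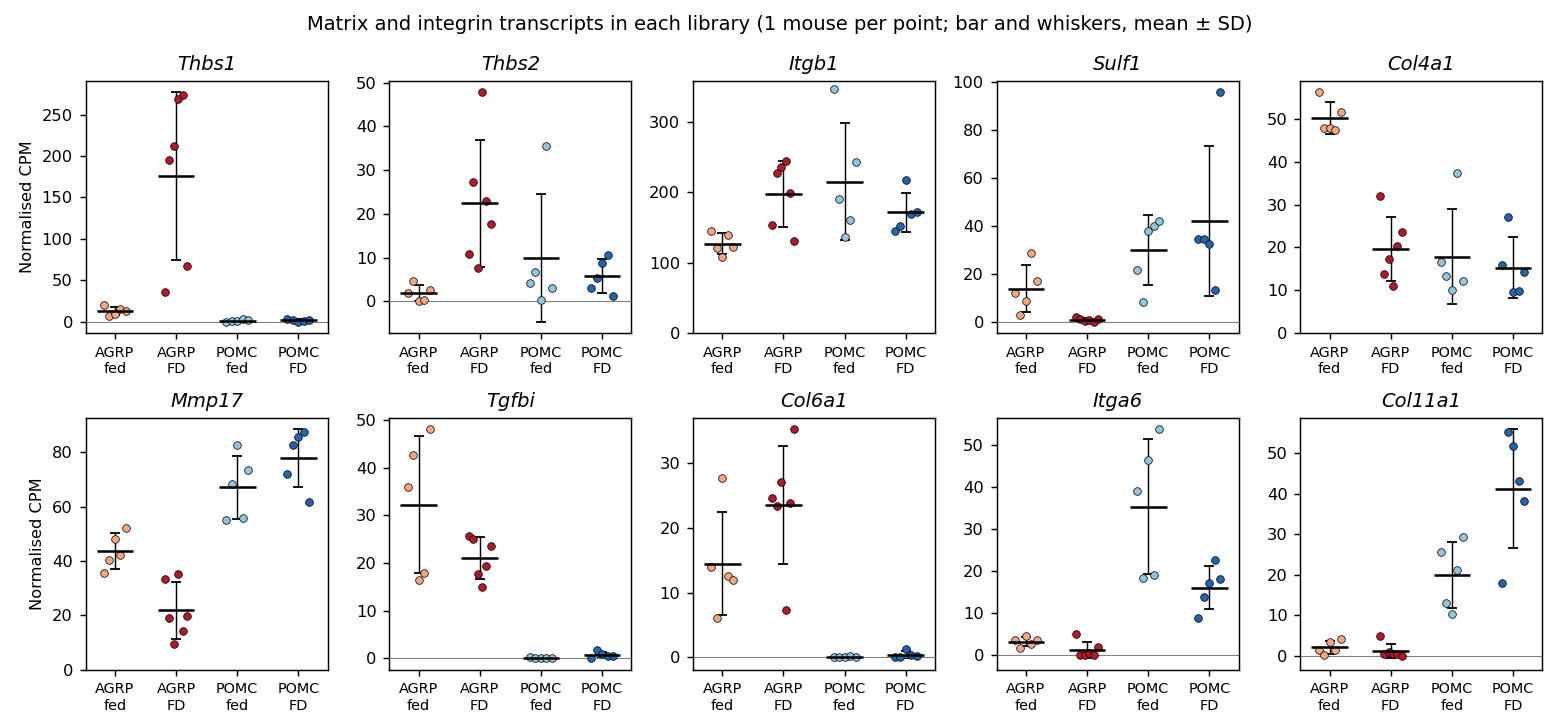
Normalised CPM of 10 genes in each library (points, 1 mouse each, linear axes), by group, with the group mean (bar) and SD (whiskers). *Thbs1* and *Thbs2* are higher and *Sulf1*, *Col4a1* and *Mmp17* lower in FD than in fed AGRP libraries without overlap, whereas *Tgfbi* and *Col6a1* separate AGRP from POMC libraries in both states, and *Itga6* separates them the other way.

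In POMC neurons food deprivation changed 0 of the 92 genes, where 0.375% of all genes tested passed. At an unadjusted p under 0.05 there were 9 of the 92 genes, beside 2010 of all 16513 genes tested. Limma-voom called 0 and DESeq2 2 of the 92. The share of all genes called by limma-voom or DESeq2 is not given, so these counts cannot be set against it. The median log2 change was −0.03, beside −0.02 for all genes. *Tgfbi*, which encodes a secreted adhesion protein induced by TGF-beta, came nearest. It had 0 to 4 reads per library in fed POMC mice (0.221, 0.0370, 0, 0.0531 and 0.103 CPM) and 0 to 37 reads in FD mice (0, 1.77, 0.889, 0.491 and 0.435 CPM), with a log2 change of 3.15 (SE 0.75, q = 0.0504). It passed with RLE normalisation (q = 0.0480), without the count filter (q = 0.0236) and with DESeq2 (q = 0.00198), and when FD library 1 or 5 or fed library 1 was left out, but not in the 6 other alternatives.

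*Sulf1* in POMC neurons was at 21.7, 8.11, 37.8, 39.9 and 42.0 CPM in fed and 34.3, 34.3, 32.3, 13.4 and 95.5 CPM in FD libraries. The log2 difference was 0.49 (SE 0.58, q = 0.819), and it took the opposite sign without FD library 5 and under spike-in scaling. Of the spike-in volumes 1 µl alone held both fed and FD POMC libraries (3 each). Within it the log2 ratio of the means, each with 0.5 CPM added, was −0.24 for *Sulf1*, 0.03 for *Thbs1* and 1.33 for *Tgfbi*. Volume and deprivation were thus partly confounded in POMC neurons, and so in the interaction below. *Thbs1* differed by a log2 of 0.34 (SE 0.68, q = 0.908) and took the opposite sign without FD library 1 and under spike-in scaling. *Col6a3*, a collagen VI chain with a large set of von Willebrand A domains, was at 11.2, 13.2, 10.2, 9.19 and 7.70 CPM in fed and 0.852, 3.49, 2.67, 1.57 and 5.37 CPM in FD POMC libraries, without overlap, and did not pass (log2 −1.88, SE 0.54, q = 0.108).

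Whether the response differed between the cell types was tested with the interaction of cell type and deprivation, and 8 of the 92 genes passed (8.70%, against 6.71% of all genes tested), 4 in each direction, where 4.08% of all genes were more positive and 2.63% more negative in AGRP neurons. With the criteria of the study there were 5 (5.43%, against 4.55%). *Thbs1* (difference of log2 changes 3.46, SE 0.91, q = 0.0181), *Thbs2* (4.36, SE 1.21, q = 0.0256), *Col6a3* (2.60, SE 0.74, q = 0.0301) and *Itgb1* (0.97, SE 0.29, q = 0.0392) had the more positive change in AGRP neurons. *Sulf1* (−4.47, SE 0.86, q = 0.00117), *Tgfbi* (−3.77, SE 0.91, q = 0.0102), *Lama3* (−3.03, SE 0.88, q = 0.0324) and *Mmp17* (−1.21, SE 0.38, q = 0.0488) had the more negative one. For *Col6a3* and *Tgfbi* neither cell type passed the test by itself. The log2 change of *Tgfbi* was −0.62 in AGRP and 3.15 in POMC neurons. Its POMC libraries held 0 to 4 reads in fed and 0 to 37 in FD mice, so the difference rests mostly on a group near the detection floor. Leaving out fed POMC library 4 raised q above 0.05 for *Thbs1* (log2 2.76) and *Thbs2* (2.86), the latter being lost also without FD AGRP library 4. With limma-voom the calls of *Thbs1*, *Thbs2*, *Tgfbi* and *Itgb1* were lost (q = 0.0677 to 0.379), and with the spike-in volume as a block those of *Itgb1*, *Lama3* and *Mmp17*. The calls of *Itgb1*, *Mmp17*, *Lama3* and *Col6a3* were kept in 7, 4, 14 and 15 of the 21 fits that left out 1 library. Under spike-in scaling, which brought the median of all genes to 1.04, 0 of the 8 passed, and the share of all genes that did is not given.

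**Figure D3:**
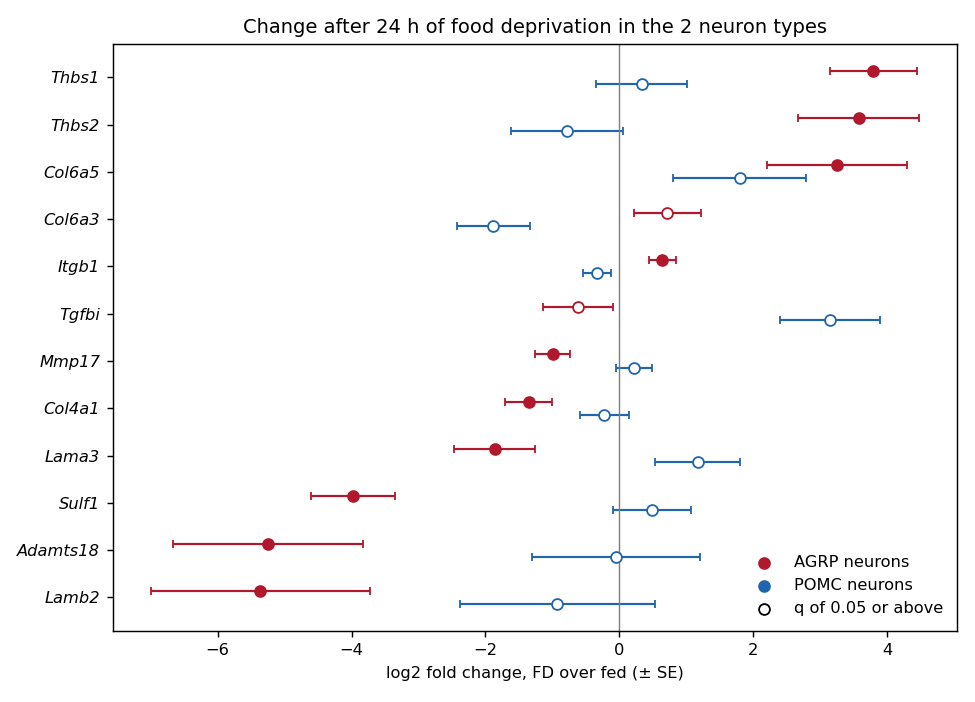
Log2 fold change on food deprivation with its SE for the 12 genes that changed in AGRP neurons or differed in response between the cell types, in AGRP (red) and POMC (blue) neurons, where filled points passed at q under 0.05. Of the 10 filled AGRP points 4 are above and 6 below 0, and no POMC point is filled.

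The cell types themselves were compared next. Between fed mice 15 of the 92 genes differed (16.3%, against 7.57% of all genes tested), 10 with more in AGRP and 5 with more in POMC neurons, where 3.33% and 4.24% of all genes were higher in each. Under the criteria of the study there were 10 genes (10.9%, against 4.02%). AGRP neurons had the higher levels of *Tgfbi*, *Col6a1*, *Lama4*, *Col5a1*, *Thbs1*, *Adamts17*, *Timp3*, *Col4a1*, *Adamts6* and *Itga3*, and POMC neurons of *Itga6*, *Col11a1*, *Col25a1*, *Sulf2* and *Itgb1*.

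*Tgfbi* (ENSMUSG00000035493, chr13:56609603-56639339) differed most. It was at 35.9, 42.7, 16.5, 17.9 and 48.1 CPM in fed AGRP libraries, against at most 0.221 CPM in fed POMC libraries, a log2 difference of 8.60 (SE 0.82, q = 5.06e-09). *Col6a1* (ENSMUSG00000001119, chr10:76708792-76726168), an obligatory chain of collagen VI, was at 14.01, 6.06, 27.6, 12.6 and 12.001 CPM in fed AGRP and 0, 0, 0, 0.266 and 0.103 CPM in fed POMC libraries (log2 7.60, SE 0.99, q = 1.73e-06). Both genes therefore lay near the detection limit in POMC neurons.

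The chains *Lama4* and *Col5a1* were low in AGRP and near 0 in POMC neurons of fed mice. *Lama4*, a laminin alpha chain of vessels and nerves, had 218 reads over the fed AGRP and 2 over the fed POMC libraries, a pooled ratio of 123 (95% interval 33.7 to 1025, counting error only, q = 0.00589). *Col5a1*, a fibrillar chain, had 106 reads and 1 read (pooled ratio 120, 95% interval 21.1 to 4782, q = 0.0334), and was kept in 5 of 10 fits with 1 library left out, being lost without fed AGRP library 5 or fed POMC library 1, 2, 3 or 4 (log2 5.65 to 7.45). *Col4a1* was at 50.2 ± 3.79 CPM (n = 5) in AGRP and 17.9 ± 11.1 CPM (n = 5) in POMC neurons (log2 1.49, q = 0.00823).

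Among enzymes and inhibitors, *Adamts6* was at 57.2 ± 11.2 CPM in fed AGRP and 25.6 ± 10.1 CPM in fed POMC neurons (n = 5 each, log2 1.16, SE 0.31, q = 0.0160), without overlap, a call lost without fed POMC library 1 or 2 (log2 1.04 to 1.399 over 10 fits). *Timp3*, the inhibitor that stays bound to the matrix, was at 83.8 ± 19.2 and 25.8 ± 12.04 CPM (log2 1.699, SE 0.38, q = 0.00314). *Adamts17* was at 23.0 ± 11.8 and 5.09 ± 4.01 CPM (log2 2.18, SE 0.68, q = 0.0461), a call that held in 2 of 10 fits with 1 library left out (log2 1.82 to 2.60), those without fed POMC library 1 or 5. *Sulf2* was the lower in AGRP neurons, at 31.0 ± 8.19 against 61.2 ± 18.8 CPM (log2 −0.98, SE 0.31, q = 0.0453), held in 3 of 10 such fits (log2 −1.12 to −0.88), those without fed AGRP library 3 or fed POMC library 3 or 4. *Sulf1* had 13.8 ± 9.72 against 29.9 ± 14.6 CPM (log2 −1.11, q = 0.317).

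The integrin chains differed in both directions. *Itga6* (ENSMUSG00000027111, chr2:71786940-71856771), a laminin-binding alpha chain, was at 3.57, 1.71, 4.63, 2.75 and 3.64 CPM in fed AGRP and 39.1, 18.4, 46.3, 19.2 and 53.7 CPM in fed POMC libraries. The groups did not overlap, and the log2 difference was −3.44 (SE 0.76, q = 0.00279). *Itga3*, which also binds laminins, was the higher in AGRP neurons (83.0 ± 11.4 against 48.9 ± 11.5 CPM, log2 0.76, SE 0.21, q = 0.0211), and *Itgb1*, with which both chains pair, the lower (127 ± 14.9 against 215 ± 83.3 CPM, log2 −0.76, SE 0.21, q = 0.0206), with overlap for both. The call of *Itga3* was lost without fed AGRP library 3 or 4 or fed POMC library 1 or 4 (log2 0.70 to 0.92 over 10 fits) and that of *Itgb1* without fed AGRP library 2 or 3 or fed POMC library 1 (−0.88 to −0.52).

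*Col11a1* (ENSMUSG00000027966, chr3:114030540-114220718), a minor fibrillar chain of cartilage and of some neurons, was at 1.37, 0.330, 3.35, 1.33 and 4.13 CPM in fed AGRP and 25.6, 12.9, 10.4, 21.1 and 29.4 CPM in fed POMC libraries (log2 −3.24, SE 0.72, q = 0.00303). *Col25a1*, a neuronal membrane-spanning collagen, was at 6.26 ± 2.53 and 28.4 ± 9.29 CPM (n = 5 each, log2 −2.18, SE 0.43, q = 7.85e-04). Neither overlapped between the cell types. All 15 differences kept their direction within each of the 2 spike-in volumes that held fed mice of both types. They were called on these same libraries, so the shared direction is no separate test. The calls of *Col5a1*, *Sulf2* and *Itga3* were lost with the volume as a block. Under spike-in scaling 3 of the 15 (*Tgfbi*, *Col6a1*, *Thbs1*) passed, and the share of all genes that kept a call is not given. With limma-voom *Thbs1* did not pass (q = 0.108).

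**Figure D4:**
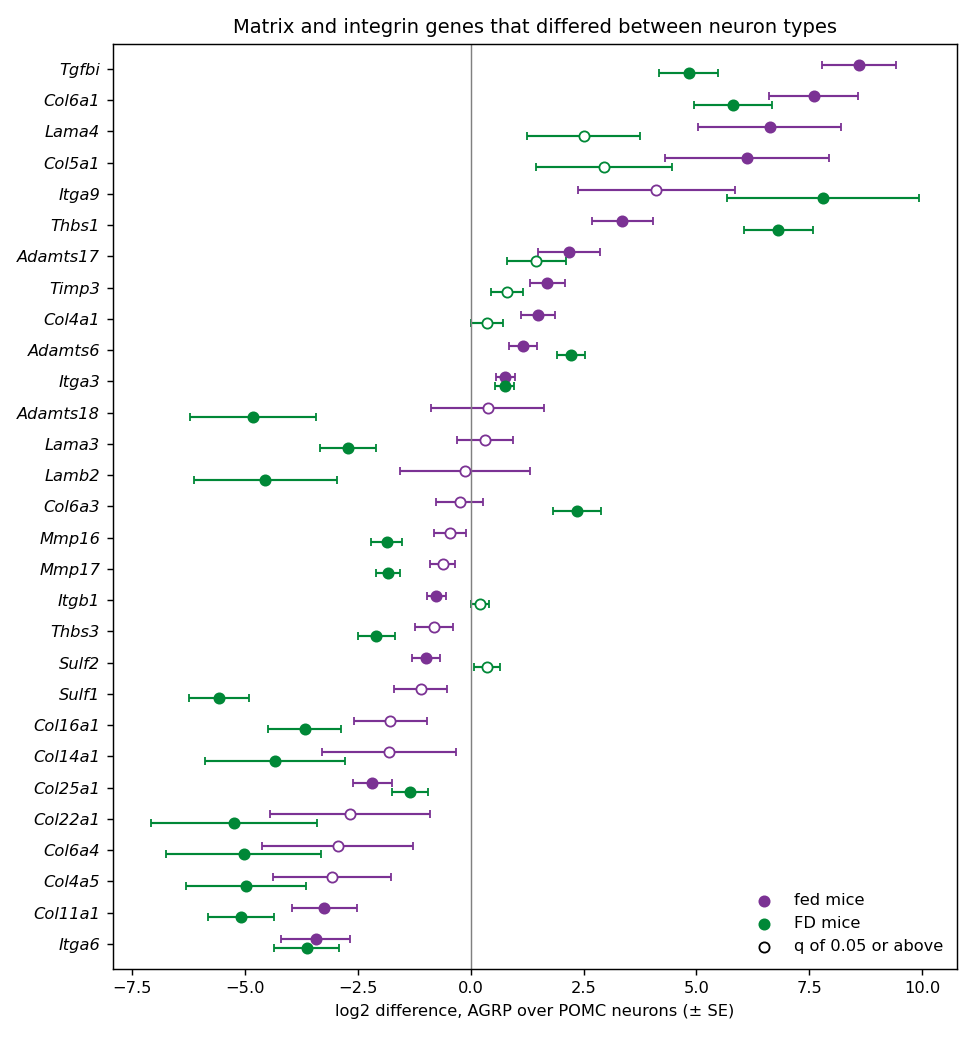
Log2 difference between AGRP and POMC neurons with its SE in fed (purple) and FD (green) mice for the 29 genes that passed in either state, where filled points passed at q under 0.05. *Tgfbi*, *Col6a1*, *Thbs1*, *Adamts6* and *Itga3* are filled and above 0 in both states, and *Itga6*, *Col11a1* and *Col25a1* filled and below 0 in both.

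In FD mice 22 of the 92 genes differed between the cell types (23.9%, against 18.6% of all genes tested), 7 with more in AGRP and 15 with more in POMC neurons, against 9.28% and 9.27% of all genes. With the criteria of the study there were 11 (12%, against 8.11%). This comparison shares its libraries with those above. *Thbs1* (log2 6.82, SE 0.77, q = 7.51e-08), *Col6a1* (5.81, SE 0.86, q = 8.00e-06), *Tgfbi* (4.83, SE 0.65, q = 1.81e-06), *Col6a3* (2.35, SE 0.54, q = 0.00187), *Adamts6* (2.23, SE 0.31, q = 3.19e-06) and *Itga3* (0.75, SE 0.20, q = 0.00877) were higher in AGRP neurons. *Itga9*, an integrin chain that binds tenascin, had 0 reads in all 5 FD POMC libraries and 166 over the 6 FD AGRP libraries, 2 of which had 0, and was at least 7.55-fold higher with each POMC library set to 3 counts (q = 0.0101). FD AGRP library 5 held 92 of these reads, and the call of *Itga9* was lost with limma-voom (log2 3.96, q = 0.0688).

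Genes higher in FD POMC neurons included *Sulf1* (log2 −5.58, SE 0.67, q = 2.27e-07), *Col11a1* (−5.09, SE 0.73, q = 4.23e-06), *Col16a1* (−3.68, SE 0.82, q = 0.00137), *Itga6* (−3.64, SE 0.72, q = 3.97e-04), *Lama3* (−2.71, SE 0.62, q = 0.00190), *Thbs3* (−2.09, SE 0.41, q = 3.89e-04), *Mmp16* (−1.86, SE 0.35, q = 1.80e-04), *Mmp17* (−1.83, SE 0.27, q = 5.16e-06) and *Col25a1* (−1.34, SE 0.39, q = 0.0155). For *Col11a1* the FD POMC libraries were at 18.1, 55.3, 51.7, 43.0 and 38.2 CPM and the FD AGRP libraries between 0 and 4.84 CPM (median 0.512). *Mmp17* was at 72.0, 82.6, 85.7, 87.4 and 61.8 CPM in FD POMC libraries, above the highest FD AGRP library (35.4). *Mmp16*, another membrane-anchored metalloproteinase, had 45.5 ± 20.7 CPM (n = 5) in POMC and 12.5 ± 6.49 CPM (n = 6) in AGRP neurons, with overlap.

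The last 6 were at low levels, each overlapping between the cell types: *Adamts18* (0.160 CPM in AGRP and 4.66 in POMC neurons), *Col22a1* (0.0649 and 2.67), *Col4a5* (0.0733 and 2.44), *Col6a4* (0.0446 and 1.62), *Col14a1* (0.0586 and 1.31) and *Lamb2* (0.0248 and 0.797). In *Col6a4* 1 FD POMC library (3, at 7.45 CPM) held most of the mean, leaving it out brought the log2 difference from −5.03 to −1.76, and it was the 1 gene of the 22 without the same direction in both spike-in volumes that held FD mice of each type. With the volume as a block *Adamts18* (log2 −2.35 in place of −4.83), *Col22a1*, *Col6a4*, *Col14a1* and *Lamb2* lost their calls. Over the 11 fits that left out 1 library *Col22a1*, *Col6a4*, *Lamb2* and *Col14a1* passed in 4, 5, 5 and 2. With limma-voom each of these genes lost its call (q = 0.0933 to 0.341). Spike-in scaling, which brought the median log2 difference of all genes in this comparison to 1.10, kept 8 of the 22 calls. The share of all genes that kept a call is not given.

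Related genes outside the list were counted for context. Of 134 listed matrix, crosslinking, heparan sulfate, protease inhibitor, integrin partner and TGF-beta genes, 107 were tested. In AGRP neurons 10 rose and 3 fell on food deprivation (12.1%, near the 10.3% of all genes). In POMC neurons 0 did by edgeR (28 of the 107 had an unadjusted p under 0.05, beside 2010 of all 16513 genes). Between fed AGRP and POMC neurons 9 were higher in AGRP and 12 in POMC neurons (19.6%, against 7.57% of all genes). In FD mice 21 and 19 differed (37.4%, against 18.6%), and 10 differed in response (9.35%, against 6.71%). Integrin partners had 4 rises and 1 fall among 22 tested in FD AGRP neurons, including *Ptk2b*, a focal adhesion kinase relative (2.83 to 52.2 CPM, log2 4.21, q = 0.00109), and *Vcl*, the adhesion plaque protein vinculin (13.9 to 79.6 CPM, log2 2.51, q = 3.96e-05). Of 19 other matrix proteins 3 rose and 1 fell, among them *Fbn2*, fibrillin 2 (2.67 to 20.4 CPM, q = 0.0224), *Npnt*, the integrin ligand nephronectin (0.218 to 2.30 CPM, q = 0.0275), and *Matn2* (17.2 to 4.31 CPM, q = 0.0126). Among 16 collagen processing genes 1 rose, and among 27 heparan sulfate genes 2 rose and 1 fell. By edgeR 0 of 17 proteases and inhibitors and 0 of 6 TGF-beta genes passed in this comparison, with 5 and 0 at an unadjusted p under 0.05, beside 3686 of all 16513 genes.

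Between fed cell types the largest differences among these related genes were in *Tll1*, a collagen-processing protease (8.42 CPM in AGRP and 0.0205 in POMC neurons, q = 5.31e-05), *Serpine2*, a protease inhibitor (9.02 and 0.122, q = 0.00314), *Fn1*, fibronectin (2.28 and 94.3, q = 2.44e-08), *Ndst3*, a heparan sulfate sulfotransferase (1.88 and 90.3, q = 1.00e-07), and *Lgals1* (0.0107 and 2.25, q = 0.0200). In FD mice they were in *Loxl2* (0.0219 CPM in AGRP and 11.1 in POMC neurons, q = 5.04e-04), *Loxl1* (1.25 and 0, q = 0.0158), *Adamtsl2* (0.0377 and 1.604, q = 0.0148), *Tll1* (17.7 and 0.642, q = 0.00107) and *Ptk2b* (52.2 and 2.76, q = 4.03e-04). In the interaction they included *Tnn* (−10.56, q = 0.0238, with group means of 0.0103 to 1.67 CPM), *Fbn2* (6.04, q = 0.00201), *Ptk2b* (4.23, q = 0.0174) and *Fn1* (2.54, q = 0.0164). The calls of the related genes were not examined under the alternatives or with a library left out. Those of *Loxl1*, *Adamtsl2*, *Lgals1*, *Npnt* and *Tnn* rest on low levels in the groups compared.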

How the data were processed

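RNA-Seq libraries of manually sorted AGRP and POMC neurons from 21 mice were analysed, each from 1 mouse and amplified with the Ovation system, without molecular identifiers. The authors trimmed reads with cutadapt 1.7.1, removed abundant sequences with Bowtie2 2.1.0, aligned to mm10 with STAR 2.4.0i and counted reads per gene without strand with HTSeq 0.6.1p1. The deposited counts per gene are raw, and the deposited TPM are the authors' counts divided by exon length and scaled to one fixed total per library. Reads on no gene (24.2 to 52.1% per library) and spike-ins were left out of library sizes.

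Counts were normalised by TMM and fitted in edgeR 4.0.16 (R 4.3.3) with the quasi-likelihood test over all 4 groups, for 16513 genes with CPM over 1 in at least 3 libraries, and p-values were adjusted by Benjamini-Hochberg over all of them. TPM are used for levels across genes and were not tested. Gene counts per library ran from 9822298 to 37663979, and 3 counts were taken as the detection floor. Intervals and floors cover counting error only. The comparison of FD with fed AGRP neurons was also run on simulated counts. The other comparisons, spike-in scaling and changes in genes of low count were not simulated.

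Alternatives were limma-voom 3.58.1, DESeq2 1.42.0, RLE normalisation, no count filter, the compared groups alone, replicate number, spike-in volume or sorted cells as covariates, spike-in scaling, the criteria of the study and leaving out each library. Named genes are all with q under 0.05 in a comparison, *Sulf1*, *Tgfbi* and *Thbs1* throughout, the highest member by TPM of each family, and of the related lists the 5 largest called changes per comparison, of which 1 is not reported here. Other genes in the text, such as *Thbs3*, *Thbs4*, *Col1a1* and *Col3a1*, and the values of *Col4a2*, *Sulf2* and *Col6a3* where they did not pass, were chosen after their values were seen. The members and lists were chosen with earlier results of these data known. Replicate numbers name different mice and do not pair them. Promoter sequences are from RefSeq (GRCm38.p6), read with Python 3.11.15, and figures were drawn with matplotlib 3.10.9.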

Additional observations from a re-analysis of the deposited data

Results flagged for a closer look

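Of 117 combinations of a named gene and a group, 25 held 1 library whose gap to the nearest other exceeded Dixon's 95% critical share of the range. Chance flags about 1 in 20 groups, and low counts are skewed.

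Values are normalised CPM, with the nearest other library of the group in brackets. In fed AGRP neurons library 3 was high for *Adamts17* at 43.7 (21.1) and *Col16a1* at 6.64 (2.65), library 2 for *Col22a1* at 0.495 (0) and *Lama4* at 5.07 (2.09), and library 1 for *Col6a4* at 0.320 (0.0949). In FD AGRP neurons library 1 was high for *Adamts18* at 0.807 (0.0745), *Col11a1* at 4.84 (0.911), *Col16a1* at 2.54 (0.894) and *Col22a1* at 0.288 (0.101). Library 2 was high there for *Col5a1* at 8.11 (2.99), *Lama4* at 8.06 (2.61) and *Timp3* at 110.1 (38.7), and library 5 for *Itga9* at 4.66 (1.64).

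In fed POMC neurons library 3 was high for *Col14a1* at 3.54 (0.668), library 4 for *Col4a1* at 37.3 (16.5) and *Thbs2* at 35.6 (6.63), and library 5 for *Itga3* at 69.1 (46.2). In FD POMC neurons library 1 was high for *Col14a1* at 4.74 (1.02), library 2 for *Adamts17* at 9.03 (2.66) and *Col22a1* at 10.7 (2.104), library 3 for *Col6a4* at 7.45 (0.586) and *Lama4* at 1.65 (0.145), library 4 for *Col5a1* at 1.28 (0.290), and library 5 for *Lamb2* at 3.05 (0.477) and *Sulf1* at 95.5 (34.3).

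The response to food deprivation differed between the cell types by the interaction test of edgeR (q under 0.05) for *Thbs2* (4.36 on the log2 scale, AGRP minus POMC), *Thbs1* (3.46), *Col6a3* (2.60), *Itgb1* (0.97), *Mmp17* (−1.21), *Lama3* (−3.03), *Tgfbi* (−3.77) and *Sulf1* (−4.47). For *Tgfbi* the fed POMC libraries held 0 to 4 reads each.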

How the results depend on the processing

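In the counts below the share of all genes called under each alternative is not given. A move of these genes cannot be told apart from a move of all genes. Among the 92 genes tested, the count that changed in AGRP neurons (10) became 16 with limma-voom (4 up and 12 down, 8 of them shared), 3 under spike-in scaling and 4 with the criteria of the study, and 7 to 12 when 1 library was left out. In POMC neurons the count of 0 became 2 with DESeq2, 1 with RLE normalisation and 1 without the count filter, and 0 to 1 with 1 library left out. Between fed cell types the 15 became 3 under spike-in scaling and 10 to 14 with 1 library left out. Between FD cell types the 22 became 10 under spike-in scaling and 11 with the criteria of the study, and 19 to 23 with 1 library left out. For the interaction the 8 became 0 under spike-in scaling, 5 with the criteria of the study, and 4 to 11 with 1 library left out, with 4 without fed AGRP library 2 or 4 and 5 without fed AGRP library 3, FD AGRP library 5, fed POMC library 2 or FD POMC library 4. In POMC neurons *Sulf1* turned to −0.44 and *Thbs1* to −0.45 under spike-in scaling, *Sulf1* to −0.060 without FD library 5 (range over left-out libraries −0.060 to 0.73) and *Thbs1* to −0.11 without FD library 1 (range −0.11 to 1.03), none of them past the threshold. The cause was not tested, but spike-in scaling brought the median log2 of all genes to −1.11 between FD and fed POMC neurons.

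Replicate numbers belong to different mice, and 0 of 20 same-numbered pairs correlated over 0.1. With the replicate block the counts were 9, 0, 15, 20 and 5 in the order above. Over the 60 named gene results, the direction and side of the threshold were the same in 59 with DESeq2, 58 with RLE normalisation, 54 without the count filter, 48 with limma-voom and 17 under spike-in scaling.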
